A study of Mus musculus with 8 samples.

Results

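Chemokines are small secreted proteins that draw leukocytes towards the cells that make them. In the gut wall, epithelial cells, stromal cells and lymphoid follicles each make their own set, and leukocytes respond through G protein-coupled chemokine receptors, while atypical receptors bind chemokines and remove them. Their genes are expressed at levels that depend on inflammatory signals (interferon, NF-kB), on developmental programmes of lymphoid tissue and on position along the intestine. The gut chemokines described here were chosen by symbol: Cxcl1, Cxcl9, Cxcl10, Cxcl12, Cxcl13, Cxcl14, Cxcl16, Ccl20, Ccl25 and Ccl28. Of these 10 symbols, 9 were found among the 17041 genes of the deposited table, and Ccl28 was not analysed here.

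RNA was sequenced from the proximal large intestine of ApoE knockout mice, a strain prone to atherosclerosis, which were germ-free, given a defined bacterial community by gavage at 8 weeks of age and dissected at 26 weeks. The 3 core libraries came from mice carrying a core community that makes no butyrate, and the 5 others, called the R. intestinalis libraries, from mice carrying the same community with the butyrate producer Roseburia intestinalis added. All mice of either group lack Apoe and were germ-free before gavage. The labels do not say which mouse, cage, diet or sequencing run each library came from, so p-values measure the spread between these libraries. Values are the authors' normalized values, given below for replicates 1 to 3 of core and 1 to 5 of the R. intestinalis group in that order.

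Estimated depth ran from 4607307 to 15350806 reads per library, so that a normalized value of 50 came from as few as 31.5 or as many as 109 estimated reads. Markers of the labelled tissue were abundant, with the goblet cell mucin gene Muc2 between 75618 and 243421 and the colonocyte gene Car1 between 12235 and 109366. The libraries differed in genes that mark position along the intestine, since Hoxb13, a distal homeobox gene, ran from 2.16 to 663 and Slc10a2, an ileal bile acid transporter, from 13.9 to 949. Several marker lists of other gut wall cells leaned one way. Log2 differences were below 0 in 9 of 10 fibroblast, 8 of 8 smooth muscle, 6 of 7 endothelial and 6 of 6 adipocyte genes tested, with medians of -0.60, -0.43, -0.43 and -1.83, and above 0 in 9 of 11 epithelial genes (median 0.20) and 7 of 7 small intestinal genes (median 0.81). Over all genes tested, 49.6% were above 0. The unadjusted limma p was below 0.05 in 5 of these fibroblast, 4 smooth muscle, 4 endothelial and 4 adipocyte genes, all lower with R. intestinalis. It was below 0.05 in 1 epithelial and 1 small intestinal gene, both higher. Over all genes tested this share was 8.13% (4.44% higher and 3.69% lower), and 0 genes passed an adjusted p of 0.05. Median differences over T cell, plasma cell, neutrophil and distal colon lists were 0.13, -0.04, 0.26 and 0.17. In the distal colon list 3 of 5 tested genes were above 0. Its summed values ran from 13518 to 17144 in core and 17305 to 24067 with R. intestinalis, without overlap. Summed markers of group 3 innate lymphoid cells ran from 1214 to 1516 in core and 1724 to 2003 with R. intestinalis, also without overlap. Of the 3 tested, 1 had an unadjusted limma p below 0.05 (higher, against 8.13% of all genes tested) and 0 passed an adjusted p of 0.05. R. intestinalis replicate 1 stood apart, with the lowest value of the 8 libraries in 25.1% of tested genes and the highest in 28.1%, and it was lowest in 5 of the 9 chemokines found.

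The comparison of the communities asks whether adding a butyrate producer alters chemokine expression in the large intestine. By limma, 0 of the 8 chemokines with a mean of at least 10 passed an adjusted p of 0.05, against 0 of 13020 genes tested (0%), and 0 of the 8 had an unadjusted p below 0.05, against 8.13% of all genes tested (4.44% higher and 3.69% lower with R. intestinalis). The 2 groups overlapped in all 9 chemokines found, whereas they did not overlap in 5.84% of genes tested (2.53% higher and 3.31% lower). Of the 8 tested, 4 had a log2 difference above 0 and 4 below, with a median of 0.06 against -0.0035 over all genes tested. In the authors' deposited table the posterior probability of differential expression was between 0 and 0.08 for the 9 chemokines, where 0.481% of all genes reached at least 0.95.

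**Figure D1:**
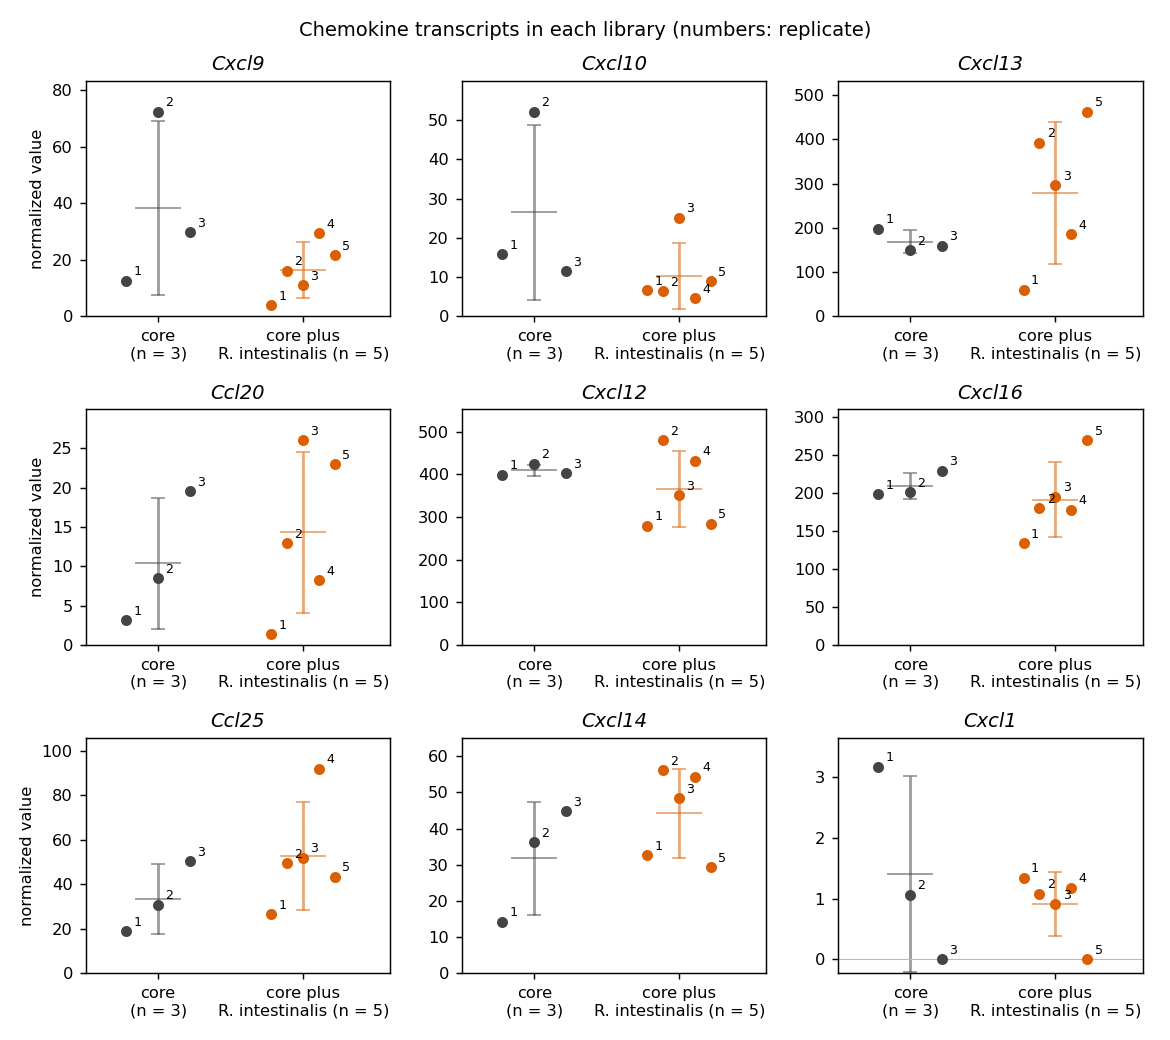
Normalized value (y axis, linear) of 9 chemokine transcripts in each library (points, numbered by replicate) for core (n = 3, grey) and core plus R. intestinalis (n = 5, orange), with horizontal marks for the mean and bars for the SD. Core replicate 2 is the highest point for Cxcl9 (72.4) and Cxcl10 (52.2), Cxcl13 spreads from 60.8 to 463 within the R. intestinalis group, and the groups overlap in every panel.

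The interferon-inducible pair Cxcl9 and Cxcl10, which attract activated T cells through the receptor CXCR3, had the lowest log2 differences of the 8. Cxcl9 was 12.7, 72.4 and 29.9 in the core libraries and 4.01, 16.2, 11.0, 29.5 and 21.7 in the R. intestinalis libraries. Core replicate 2 was far above the other 7 libraries, and the other core values lay within or next to the range of the second group. Its mean was 38.3 ± 30.7 (SD, n = 3) against 16.5 ± 9.79 (SD, n = 5), with a log2 difference, R. intestinalis minus core, of -1.08 (SE 0.643, 95% confidence interval -2.51 to 0.34, limma adjusted p = 0.606).

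Cxcl10 was 15.9, 52.2 and 11.5 in core and 6.68, 6.47, 25.1, 4.72 and 8.95 with R. intestinalis. Core replicate 2 was again the highest of the 8, and R. intestinalis replicate 3 came second, above the other 2 core libraries. The means were 26.5 ± 22.3 (SD, n = 3) and 10.4 ± 8.38 (SD, n = 5), and the log2 difference was -1.21 (SE 0.587, 95% confidence interval -2.51 to 0.09, limma adjusted p = 0.588). Without core replicate 2 the log2 differences shrank to -0.47 for Cxcl9 (adjusted p = 0.744) and -0.58 for Cxcl10 (adjusted p = 0.639), and with library weights that of Cxcl10 was 0.03. They grew to -1.68 for Cxcl9 without core replicate 1 (adjusted p = 0.977), and for Cxcl10 to -1.63 without core replicate 3 (adjusted p = 0.639) and -1.57 without R. intestinalis replicate 3 (adjusted p = 0.756). The counts behind these values were small, at 6 to 68 estimated reads per library for Cxcl9 and 4 to 55 for Cxcl10.

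The other genes of the interferon gamma axis, from the receptor subunits to interferon-induced GTPases, were in part highest in core replicate 2 as well. That library was picked after the values were seen. In it 8 of the 16 genes on this list had their highest value of the 8 libraries, while 8.47% of all genes tested did. Another 5 of the 16 were highest in R. intestinalis replicate 5, a share not counted over all genes. Iigp1, an interferon-induced GTPase, was 96.6, 660 and 126 in core and 38.7, 64.4, 74.3, 87.4 and 85.2 with R. intestinalis, without overlap. Gbp2, a guanylate-binding protein, was 330, 750 and 283 against 203 to 298. Of the 15 list members tested, 0 passed the adjusted threshold, 2 had an unadjusted p below 0.05 (Iigp1 and Gbp2, both lower with R. intestinalis, adjusted p = 0.588 each, against 8.13% of all genes tested and 3.69% lower), and the median log2 difference was -0.12. Without core replicate 2 the differences of these 2 genes were -0.70 (adjusted p = 0.48) for Iigp1 and -0.33 (adjusted p = 0.481) for Gbp2. The summed values of 10 macrophage and dendritic cell markers, cells that can make both chemokines, ran from 1284 to 1813 in core and 753 to 1683 with R. intestinalis, with core replicate 2 highest and R. intestinalis replicate 1 lowest. Their part in the Cxcl9 and Cxcl10 values was not tested. In bulk RNA, fewer cells of a type and less RNA per cell cannot be told apart.

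**Figure D2:**
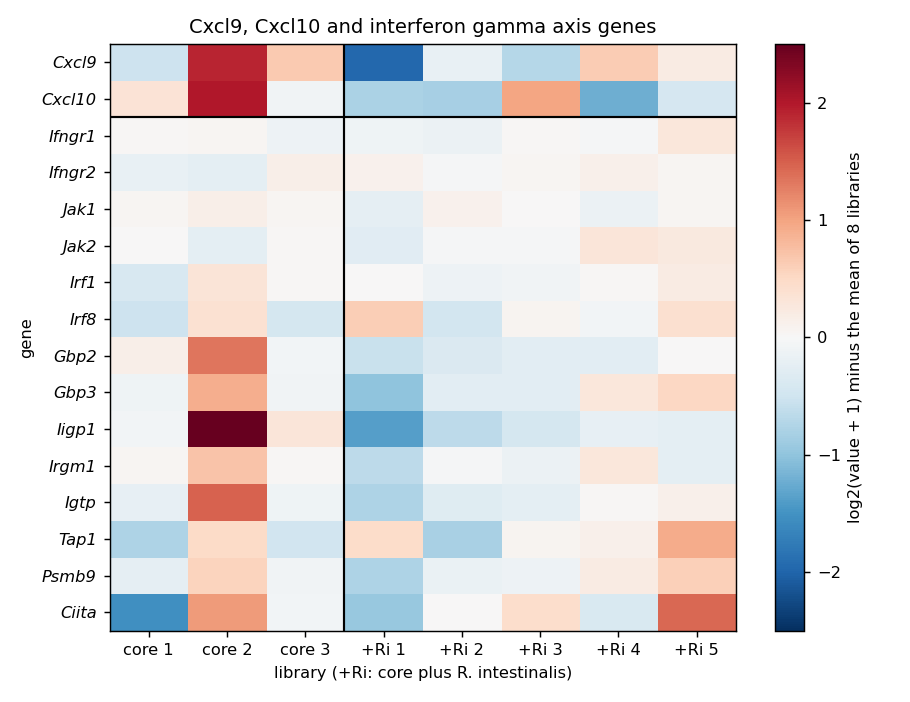
Colour map of log2(value + 1) minus the gene's mean over the 8 libraries (columns) for Cxcl9 and Cxcl10 (top rows) and 14 tested genes of the interferon gamma axis, with colours ending at -2.5 and 2.5. Core replicate 2 is the reddest column for Cxcl9, Cxcl10, Iigp1 (660 in that library), Gbp2 (750) and Igtp.

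The promoters of Cxcl9 and Cxcl10 are shown because these neighbours on chromosome 5 were high in the same library and are known for interferon and NF-kB input. Each is the 250 bases before the RefSeq start on the minus strand (GRCm38.p6), chr5:92328080-92328329 for Cxcl9, which overlaps no annotated gene, and chr5:92348890-92349139 for Cxcl10, which lies in an intron of Art3 on the other strand. Capitals mark every match to 4 motifs: kappa B-like (GGGA, any 4 bases, then CC), interferon-stimulated response element-like or ISRE-like (GAAA, any 2 bases, then GAAA) and interferon gamma-activated site-like TTCNNNGAA, each on either strand, and the TATA box TATAAA on the gene's strand.
Cxcl9: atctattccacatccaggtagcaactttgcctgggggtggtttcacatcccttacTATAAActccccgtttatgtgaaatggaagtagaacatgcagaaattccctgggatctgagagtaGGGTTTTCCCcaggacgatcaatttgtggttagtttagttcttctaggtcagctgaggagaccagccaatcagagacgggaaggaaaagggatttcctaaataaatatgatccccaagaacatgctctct
Cxcl10: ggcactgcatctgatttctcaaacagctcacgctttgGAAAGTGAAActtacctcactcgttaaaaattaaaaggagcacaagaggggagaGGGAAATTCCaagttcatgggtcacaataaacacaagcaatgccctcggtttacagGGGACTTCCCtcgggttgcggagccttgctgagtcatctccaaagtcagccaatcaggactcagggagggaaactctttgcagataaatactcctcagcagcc
In Cxcl9 the capitals are a TATAAA at 195 to 190 bases and a kappa B-like match on the opposite strand at 130 to 121 bases before the start. For Cxcl10 they are an ISRE-like match at 213 to 204 bases and kappa B-like matches at 159 to 150 bases and at 103 to 94 bases, the latter on both strands. Among 32851 windows of the same length in the RefSeq table, 17.6% hold a kappa B-like match, 2.98% an ISRE-like match, 7.02% an activated site-like match and 7.59% a TATAAA. Of the 9 chemokines with a window, Ccl28 included, 5 held a kappa B-like match (Cxcl1, Cxcl9, Cxcl10, Cxcl13 and Ccl20) and 2 an ISRE-like match (Cxcl10 and Cxcl14). A match is a description of the letters and not a measured site.

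Cxcl13 and Ccl20 are the chemokines of organised gut lymphoid tissue. CXCL13, made by follicular stromal and dendritic cells, brings in B cells through CXCR5, and CCL20, made by the epithelium over follicles, brings in CCR6-bearing B cells, dendritic cells and innate lymphoid cells. Cxcl13 was 198, 150 and 160 in core and 60.8, 393, 296, 185 and 463 with R. intestinalis. The core libraries lay close together, while the second group held the lowest and the 3 highest values of the 8 libraries, 7.62 times apart at its ends. The means were 169 ± 25.6 (SD, n = 3) and 280 ± 161 (SD, n = 5), and the log2 difference was 0.43 (SE 0.546, 95% confidence interval -0.77 to 1.64, limma adjusted p = 0.754). Without R. intestinalis replicate 1, which held the lowest value, the log2 difference was 0.91 (adjusted p = 0.662), and without its replicate 5 it was 0.18.

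Ccl20 was 3.17, 8.52 and 19.5 in core and 1.34, 12.9, 26.0, 8.26 and 23.01 with R. intestinalis, which stood for 2 to 57 estimated reads. Its lowest value, like that of Cxcl13, was in R. intestinalis replicate 1 and its 2 highest were in replicates 3 and 5 of that group. The log2 difference was 0.29 (SE 0.796, 95% confidence interval -1.47 to 2.06, limma adjusted p = 0.889), and it changed sign without core replicate 1 (-0.29) or without R. intestinalis replicate 3 (-0.017). It was 0.87 without R. intestinalis replicate 1, 0.86 without core replicate 3 and 1.54 with library weights (adjusted p = 0.126).

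Markers of B cells and of follicular dendritic cells, which form the follicles, were high in some of the same libraries. Cd79a, part of the B cell receptor complex, was 66.7, 131 and 104 in core and 68.1, 229, 182, 53.1 and 473 with R. intestinalis. Cr2, the complement receptor of follicular dendritic cells and B cells, was 11.6, 25.6 and 33.3 against 2.20, 88.2, 65.0, 7.09 and 147. Replicates 2, 3 and 5 of the R. intestinalis group had the 3 highest Cxcl13 values, a set of libraries noted after the values were seen. They also had the 3 highest values in 6 of 10 B cell markers and 3 of 5 follicular dendritic cell markers (Fcer2a is on both lists). The same held for 3 of 17 chemokine receptors, 1 of 9 T cell markers, 0 of 10 macrophage and dendritic cell markers and 0 of 10 fibroblast markers. The share over all genes was not counted, so these counts cannot show whether the pattern is particular to any list. The summed B cell markers ran from 250 to 392 in core and 212 to 1177 with R. intestinalis, and the summed follicular dendritic cell markers from 506 to 999 and from 626 to 1929. Ms4a1 and Pax5 were at 0 in some libraries, and no marker of either list was at 0 in all. Of the tested markers, 0 of 8 and 0 of 5 passed the adjusted threshold or had an unadjusted p below 0.05. Over all genes tested these shares were 0% and 8.13%, so few calls could arise among so few markers. The median log2 differences of the 2 lists were 0.45 and 0.52. The part of these cells in the Cxcl13 and Ccl20 values was not tested.

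**Figure D3:**
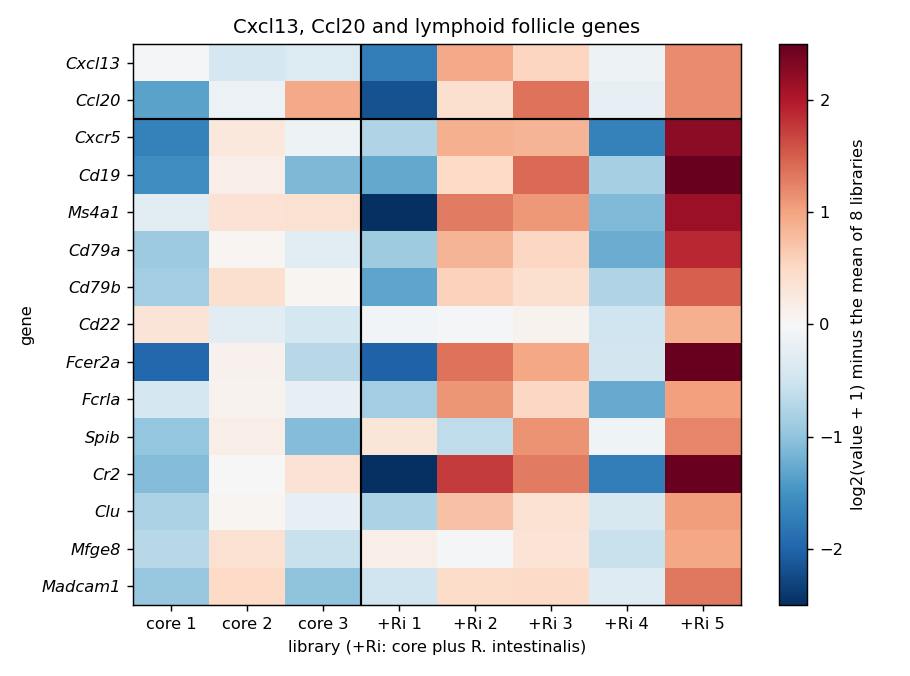
Colour map of log2(value + 1) minus the gene's mean over the 8 libraries (columns) for Cxcl13 and Ccl20 (top rows), the receptor gene Cxcr5 and the tested B cell and follicular dendritic cell markers, with colours ending at -2.5 and 2.5. R. intestinalis replicate 5 is red in every row and replicates 2 and 3 in most rows, while its replicate 1 is blue for Cxcl13 (60.8), Ccl20 (1.34) and Cr2 (2.20).

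The promoters of this pair are shown because their transcripts were low and high in overlapping sets of libraries. They are the 250 bases before the RefSeq starts on the plus strand (GRCm38.p6), chr5:95956689-95956938 for Cxcl13 and chr1:83116516-83116765 for Ccl20, both outside annotated genes, with capitals for the same 4 motifs.
Cxcl13: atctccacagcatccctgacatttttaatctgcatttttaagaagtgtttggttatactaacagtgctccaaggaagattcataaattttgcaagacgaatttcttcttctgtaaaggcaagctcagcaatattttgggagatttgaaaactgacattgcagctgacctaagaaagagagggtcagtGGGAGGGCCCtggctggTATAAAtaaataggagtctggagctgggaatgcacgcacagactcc
Ccl20: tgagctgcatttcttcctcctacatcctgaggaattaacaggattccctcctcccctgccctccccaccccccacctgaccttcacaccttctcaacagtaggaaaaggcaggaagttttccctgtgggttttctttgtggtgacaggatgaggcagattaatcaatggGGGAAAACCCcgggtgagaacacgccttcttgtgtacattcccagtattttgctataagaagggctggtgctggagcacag
The Cxcl13 window held a kappa B-like match at 63 to 54 bases and a TATAAA at 46 to 41 bases before the start. In the Ccl20 window the only match was kappa B-like, at 81 to 72 bases.

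Cxcl12, the stromal chemokine that retains leukocytes and progenitors through CXCR4, was the steadiest chemokine in core. It was 399, 425 and 403 in core and 279, 480, 351, 432 and 284 with R. intestinalis, so that the core values lay inside the wider range of the second group. The coefficient of variation was 3.35% in core and 24.4% with R. intestinalis. The means were 409 ± 13.7 (SD, n = 3) and 365 ± 89.2 (SD, n = 5), and the log2 difference was -0.20 (SE 0.194, 95% confidence interval -0.63 to 0.23, limma adjusted p = 0.697). Fibroblast markers, from cells that make much of the tissue's Cxcl12, summed to 8418 to 9622 in core and 5125 to 7491 with R. intestinalis without overlap, and 9 of 10 had a log2 difference below 0, where 49.6% of all genes tested were above 0. Dcn, the proteoglycan decorin, was the most abundant of them, at 3470 to 3954 in core and 1010 to 4201 with R. intestinalis. How far fibroblast content set the Cxcl12 values was not tested.

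Cxcl16, a membrane-anchored chemokine and scavenger receptor for oxidised lipoprotein whose receptor is CXCR6, was 198, 201 and 230 in core and 134, 180, 195, 178 and 270 with R. intestinalis. The second group again held both the lowest value, in its replicate 1, and the highest, in its replicate 5. Its log2 difference was -0.16 (SE 0.208, 95% confidence interval -0.63 to 0.30, limma adjusted p = 0.757). Exons of Zmynd15 overlap those of Cxcl16 on the opposite strand, and whether strand was used in counting is not stated, so reads of the 2 genes may not be told apart.

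Ccl25 and Cxcl14 are chemokines of epithelia. Ccl25, whose product guides CCR9-bearing T and plasma cells to the small intestine, was 19.1, 30.9 and 50.5 in core and 26.7, 49.6, 52.1, 92.1 and 43.5 with R. intestinalis. Core replicate 3 lay among the high values of the second group, and R. intestinalis replicate 1 among the low values of core. The means were 33.5 ± 15.9 (SD, n = 3) and 52.8 ± 24.1 (SD, n = 5), and the log2 difference was 0.64 (SE 0.403, 95% confidence interval -0.25 to 1.53, limma adjusted p = 0.610), the highest of the 8. It was 0.30 without core replicate 1 and 0.98 without core replicate 3 (adjusted p = 0.648).

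Small intestinal markers were high in some of the same libraries as Ccl25. Slc10a2 was 49.1, 13.9 and 510 in core and 59.7, 818, 414, 949 and 80.5 with R. intestinalis, and the 4 libraries with the highest Slc10a2 were also the 4 with the highest Ccl25, an order noted after the values were seen. The sum of the 9 small intestinal markers ran from 2413 to 4650 in core and 2394 to 6764 with R. intestinalis, where R. intestinalis replicate 4 held the highest sum and the highest Ccl25. Lct and Apoa4 were at 0 in some libraries. The part of position along the intestine in the Ccl25 values was not tested. Exons of Elavl1 overlap one end of Ccl25 on the opposite strand, with the same limit on counting as for Cxcl16.

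Cxcl14, a constitutive chemokine of epithelia with no agreed receptor, was 14.3, 36.2 and 44.8 in core and 32.7, 56.1, 48.4, 54.3 and 29.4 with R. intestinalis. Core replicate 1 was the lowest of the 8, and the other core libraries lay within the second group. Its log2 difference was 0.56 (SE 0.382, 95% confidence interval -0.28 to 1.41, limma adjusted p = 0.616) and 0.084 without core replicate 1. The summed epithelial markers were lowest in core replicate 2 (175303) and highest in R. intestinalis replicate 1 (401241). Their part in the Cxcl14 values was not tested.

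Cxcl1, the neutrophil attractant that epithelium and stroma release under IL-17 and microbial stimulation, was near the limit of detection. It was 3.17, 1.06 and 0 in core and 1.34, 1.08, 0.91, 1.18 and 0 with R. intestinalis, which stood for 0 to 2 estimated reads each, and it was not tested. A difference between the groups was not detectable at this depth. The related neutrophil attractants were as low, with Cxcl2 at 0 in 7 of the 8 libraries and Cxcl5 between 0 and 3.14. Of the 6 neutrophil markers found, S100a8, S100a9, Mpo and Camp were at most 5.90 in any library, while Csf3r was 7.90 to 18.6 and Cxcr2 43.8 to 75.9.

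Division by kilobases of annotated exon (GENCODE) allows levels to be set side by side between genes only roughly. Cxcl13 had the highest median over the 8 libraries at 167 per kilobase, with a range of 52.8 to 402. Cxcl16 followed at a median of 72.9 (49.7 to 99.9) and Cxcl12 at 56.0 (39.0 to 67.0) per kilobase, and their ranges overlapped each other and that of Cxcl13. Ccl25 and Cxcl14 had medians of 29.9 and 22.2 per kilobase. Ccl20 at 7.55, Cxcl10 at 6.72 and Cxcl9 at 6.57 per kilobase could not be ordered, as their ranges overlapped almost throughout, and Cxcl1 was lowest at 1.12 per kilobase. The annotation behind the authors' values is not given, so these lengths are approximate. Each length joins all annotated exons of the gene (7160 bases for Cxcl12, 1150 for Cxcl13). A level is therefore understated where the transcript present is shorter than that.

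The receptors were set beside their ligands over the 8 libraries. Of 10 planned pairs, 5 had a mean of at least 10 for ligand and receptor, and 0 of the 5 passed a Benjamini-Hochberg adjusted p of 0.05 (exact permutation over all pairings, two-sided). Cxcl12 and Ackr3, the scavenging receptor for CXCL12, gave a Pearson r of 0.72 (exact permutation p = 0.0367, adjusted 0.142) and a Spearman rho of 0.67 (exact permutation p = 0.0831, adjusted 0.192). Without the 2 libraries farthest from the Cxcl12 median, replicates 1 and 5 of the R. intestinalis group, r was 0.34, and with any 1 library left out it was 0.50 to 0.80. Ccl25 and Ccr9 gave an r of 0.69 (exact permutation p = 0.0570, adjusted 0.142) and a rho of 0.64 (exact permutation p = 0.0962, adjusted 0.192), with an r of 0.69 without the 2 farthest libraries.

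Cxcl13 and Cxcr5 gave an r of 0.63 (exact permutation p = 0.0935, adjusted 0.156) and a rho of 0.62 (exact permutation p = 0.115, adjusted 0.192), with 0.52 without the 2 farthest. Cxcr5 itself, the receptor of follicular B and T cells, was 4.76, 21.3 and 16.1 in core and 10.02, 33.4, 32.4, 4.72 and 86.9 with R. intestinalis. Cxcl16 and Cxcr6 gave an r of 0.56 (exact permutation p = 0.153, adjusted 0.192) and a rho of 0.17 (exact permutation p = 0.703, adjusted 0.879), and r was -0.00058 without the 2 farthest. Cxcl12 and Cxcr4 gave an r of 0.03 (exact permutation p = 0.943, adjusted 0.943) and a rho of -0.02 (exact permutation p = 0.977, adjusted 0.977), with -0.06 without the 2 farthest. For deviations from the group means, r ran from 0.03 (Cxcl12 and Cxcr4) to 0.71 (Ccl25 and Ccr9).

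In the remaining 5 pairs the receptor or the ligand was too low to test or not analysed here. Cxcr3, the receptor of CXCL9 and CXCL10, was 2.13 to 4.76 in core and 2.67 to 11.5 with R. intestinalis. Ccr6 was 0 to 6.89 and 2.00 to 14.1, with its highest value, like those of Cxcr5 and Cxcl13, in R. intestinalis replicate 5. Cxcr2, the receptor of CXCL1, was 52.0 to 61.3 and 43.8 to 75.9. Ccr10, the receptor of CCL28 on plasma cells, was 0 to 5.32 in core and 1.08 to 11.5 with R. intestinalis. Among the 18 conventional receptors on the list, 10 were tested and 0 passed. Of the 10, 0 had an unadjusted p below 0.05, against 8.13% of all genes tested, and 5 had a log2 difference above 0 and 5 below.

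**Figure D4:**
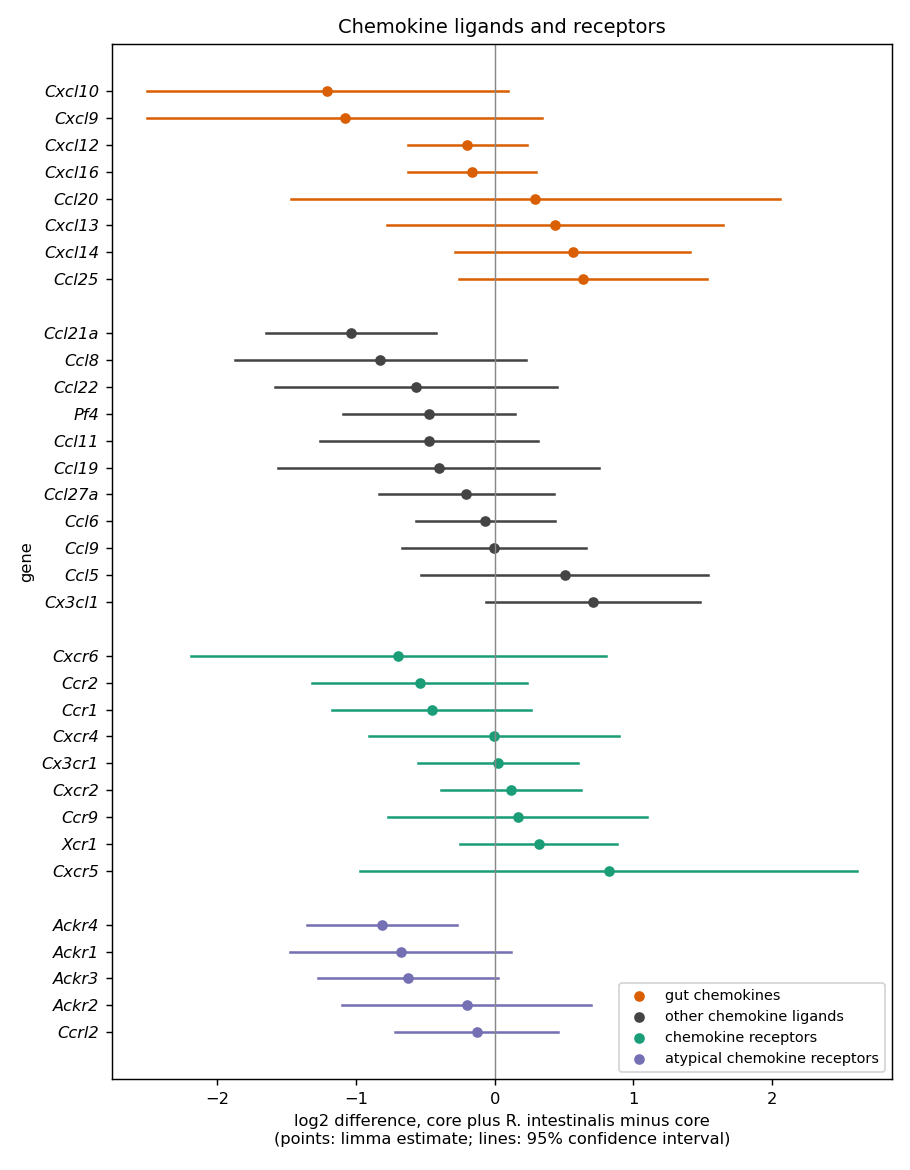
Log2 difference, core plus R. intestinalis minus core (x axis), with its 95% confidence interval from limma, for the 8 tested gut chemokines, 11 other chemokine ligands, 9 conventional and 5 atypical receptors (y axis, one line per gene). The intervals of all 8 gut chemokines cross 0, those of Ccl21a (-1.04) and Ackr4 (-0.81) do not, and 0 genes passed the adjusted threshold.

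Most of the other chemokine ligands tested and all of the atypical receptors had log2 differences below 0. Of 28 other ligands on the list, 26 were found, 11 were tested and 0 passed. Their median log2 difference was -0.41, with 9 of the 11 below 0, where 49.6% of all genes tested were above 0. Only 1 of the 11, Ccl21a, had an unadjusted p below 0.05, against 8.13% of all genes tested (3.69% lower). The smallest p was that of Ccl21a, a lymphatic and T zone chemokine, at 1004, 1126 and 695 in core and 523, 294, 673, 534 and 328 with R. intestinalis. These groups did not overlap (log2 difference -1.04, SE 0.277, limma adjusted p = 0.588), and Ccl21a has near-identical copies in the mouse genome among which reads may have been split. Cx3cl1, the membrane-bound chemokine fractalkine, was 117, 181 and 150 against 498, 149, 283, 168 and 233 (log2 difference 0.71, adjusted p = 0.588). Ccl8 (-0.83) and Pf4 (-0.48) were the next by p (adjusted p = 0.602 and 0.605).

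All 5 atypical receptors had log2 differences below 0, with a median of -0.63, where 49.6% of all genes tested were above 0. Of the 5, 0 passed the adjusted threshold and 1, Ackr4, had an unadjusted p below 0.05, against 8.13% of all genes tested (3.69% lower). Ackr4, the scavenger of CCL19, CCL21 and CCL25, was 469, 431 and 325 in core and 148, 346, 231, 245 and 217 with R. intestinalis, with core replicate 3 below replicate 2 of the other group (log2 difference -0.81, SE 0.245, limma adjusted p = 0.588). The authors' deposited table gives it a posterior probability of 0.77. Ackr3 was 284, 219 and 162 against 77.5, 194, 139, 172 and 147 (log2 difference -0.63, adjusted p = 0.588), and Ackr1, the venular receptor that carries chemokines across endothelium, had a log2 difference of -0.68 (adjusted p = 0.591). Ackr2, the scavenger of inflammatory CC chemokines, had -0.20, which became 0.09 without core replicate 2. Fibroblast sums did not overlap between the groups, as given above, and endothelial marker sums ran from 1039 to 1413 in core and 720 to 1093 with R. intestinalis, with their part in these values not tested.

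By limma, 0 genes of the lists upstream and downstream of the chemokines passed the adjusted threshold. Of 9 tested genes for chemokine proteolysis and surface presentation, 2 had an unadjusted p below 0.05, both higher with R. intestinalis (8.13% of all genes tested, 4.44% higher). They were Ndst1, which sulfates the heparan chains that hold chemokines (89.6 ± 15.5 and 140 ± 24.7, log2 difference 0.63, groups not overlapping), and Sdc1, a heparan sulfate proteoglycan (989 ± 135 and 1369 ± 224, log2 difference 0.46). Limma adjusted p was 0.588 for each. Adam17 and Adam10, the proteases that shed CXCL16 and CX3CL1 from the membrane, had log2 differences of -0.24 and -0.16 (adjusted p = 0.602 and 0.631), and the groups did not overlap for Adam17, which was lower with R. intestinalis.

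In the IL-17 and NF-kB axis 10 of 12 tested genes had differences above 0 (49.6% of all genes tested), with a median of 0.22. Of the 12, 0 had an unadjusted p below 0.05, against 8.13% of all genes tested. The summed list ran from 2186 to 2703 in core and 2220 to 3354 with R. intestinalis, highest in replicate 1 of that group. Tnf, the cytokine that drives several chemokines, was 20.6, 12.8 and 13.8 in core and 9.35, 6.47, 11.4, 9.44 and 8.95 with R. intestinalis (log2 difference -0.71, adjusted p = 0.588). The groups did not overlap for Tnf, nor did they for 5.84% of all genes tested (3.31% lower). Its mean of 11.6 was close to the filter of 10. Traf3ip2, the IL-17 receptor adaptor, Nfkbiz and Rela had 0.49, 0.24 and 0.44. The lymphotoxin axis, which controls CXCL13 in lymphoid stroma, had a median of 0.29 over 7 tested genes. Of the 7, 0 had an unadjusted p below 0.05, against 8.13% of all genes tested. The summed list was highest in R. intestinalis replicate 1 (1630), where Cxcl13 was lowest (60.8). It was 1315 in replicate 5, where Cxcl13 was highest (463), and lowest in replicate 2 (664), where Cxcl13 was 393. A relation to Cxcl13 was not tested. On this list, Relb was 55.6, 108 and 67.7 against 234, 52.8, 157, 135 and 179 (log2 difference 0.87, adjusted p = 0.588). Map3k14, the NF-kB-inducing kinase, Nfkb2 and Tnfsf13b had 0.83, 0.48 and -0.23.

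Of 11 tested genes that carry or end chemokine receptor signals, 8 had differences above 0 (49.6% of all genes tested), and the median was 0.17. Of the 11, 2 had an unadjusted p below 0.05 (Rgs1, lower, and Grk2, higher with R. intestinalis). Over all genes tested this share was 8.13% (4.44% higher and 3.69% lower). Rgs1, which shuts off chemokine receptor signalling in lymphocytes, was 454, 345 and 329 in core and 232, 205, 175, 183 and 110 with R. intestinalis without overlap (log2 difference -1.08, SE 0.234, limma adjusted p = 0.588). The adjustment gave this same value to genes of unlike unadjusted limma p, such as Rgs1 (0.00086), Ccl21a (0.0035) and Cxcl10 (0.0655). The authors' deposited table gives Rgs1 a posterior probability of 1 and a fold of 0.48, past the 0.95 that 0.481% of its genes reached. Grk2, the kinase that desensitises the receptors, was 153 ± 25.1 and 234 ± 68.6 (log2 difference 0.57, adjusted p = 0.588). Pik3cg (-0.48) and Rgs16 (0.61) followed.

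The genes whose log2 values ran most like each chemokine over the 8 libraries were found among 9582 or 9583 genes with a mean of at least 50. For Cxcl9 they were Tgtp2, an interferon-induced GTPase (r = 0.97), Ercc8 (0.94) and Pip4k2a (0.93). Tgtp2, which has a near-identical copy in Tgtp1 with which it may share reads, was 37.7, 164 and 48.5 in core and 10.2, 42.5, 32.4, 71.0 and 46.0 with R. intestinalis. For Cxcl10 they were Dtx3l, a ubiquitin ligase (0.97), Naaa (0.94) and Kdr (0.92), and for Cxcl12 Fam198b (0.98), Cd109 (0.98) and Edil3 (0.98). Those for Cxcl13 were Son (0.96), Herc1 (0.96) and Fndc3a (0.95), and those for Ccl20 Ceacam18 (0.93), Ubd (0.93) and Spnb2 (0.93). Cxcl14 ran most like Auh (0.95), Slc16a9 (0.95) and Gstp2 (0.95), Cxcl16 like Msl2 (0.97), Hnrpll (0.95) and Exph5 (0.92), and Ccl25 like S1pr3 (0.98), Fcgrt (0.95) and Slc46a3 (0.95). With 8 libraries and this many genes such values are a description only. Between 5 (Cxcl10) and 93 (Cxcl12) genes had an r above 0.9, and after quantile normalization 8 of the 24 genes named here stayed among the nearest 3.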

How the data were processed

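RNA of the proximal large intestine was measured in 8 libraries (3 core, 5 core plus R. intestinalis). The deposited table gives the authors' normalized expression signal per gene and library, in which, per the file headers and the values, estimated reads were divided by 1 factor per library. It also gives a posterior probability (a fraction from 0 to 1) and fold changes (a linear ratio, core plus R. intestinalis over core) from the authors' comparison. Bowtie2, RSEM 1.2.23 and the mm9 build are listed in the submitters' processing notes, without a role or order. Annotation, gene filter and strand setting were not given in the sources used here.

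Low values clustered on 1 step per library, from which depth was estimated. This held for 79.9% to 84.2% of the values below 30 (tolerance 0.05), so whole reads were not assumed and no count test was run. The 13020 genes whose mean was 10 or more were tested on log2(value + 1), a scale on which changes of low genes look smaller, with limma 3.58.1 in R 4.3.3 (R. intestinalis minus core, variance following the mean), with a Benjamini-Hochberg adjusted p of 0.05 over all genes tested. The scripts were tested on simulated data. Ligand-receptor relations used exact permutations (numpy 2.4.6), with ranks for Spearman rho from scipy 1.17.1.

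The chemokines and the 22 gene lists (8 of the pathway, 14 of cell type or position markers) were chosen with earlier results of these data known. Named genes are the chemokines, up to 4 genes per pathway list by smallest p, the receptors, and the 3 most similar genes per chemokine among those with a mean of at least 50, leaving out predicted genes, Riken clones, ribosomal protein genes and receptor segments. Further genes named with values (Cd79a, Cr2, Dcn, Cxcl2, Cxcl5, S100a8, S100a9, Mpo, Camp, Csf3r, Muc2, Car1, Hoxb13, Slc10a2) are list members picked after their values were seen. A few list members are counted in their lists but not reported here by name or drawn. Older symbols in the table were read as current ones (Ccrl1 as Ackr4, Cxcr7 as Ackr3, Darc as Ackr1, Ccbp2 as Ackr2, Adrbk1 as Grk2). Alternatives were pseudocounts of 0.5 and 5, no filter, a mean of at least 50, a trimmed mean of M values, quantile normalization, each library left out, a replicate block, library weights and no trend. A GC correction (lowess, span 0.3) and a block by the number in the sample name were chosen after seeing the data. Promoter windows come from RefSeq (GRCm38.p6), which is not the authors' mm9, and no coordinate was converted.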

Additional observations from a re-analysis of the deposited data

Results flagged for a closer look

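In 60 groups of the 5 core plus R. intestinalis libraries (46 genes and 14 sums of marker lists), 2 held a library far from the other 4, and chance gives about 5% of such groups. Cxcl10 was 25.13 in replicate 3, while the other 4 libraries lay between 4.72 and 8.95. Sdc1 was 980.19 in replicate 2, while the other 4 lay between 1386 and 1531. The 3 core libraries were too few for this check.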

How the results depend on the processing

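Under 19 alternatives, 143 of 147 log2 differences of the 8 chemokines kept their sign, 0 passed the adjusted threshold, and the smallest adjusted p was 0.0905 (Ccl25, library weights). Library weights gave 455 genes past the threshold against 0, and 3829 with an unadjusted p below 0.05 against 1058, with 4 chemokines among the latter (Cxcl13, Cxcl14, Ccl20 and Ccl25) against 0. Leaving out 1 library gave 0 to 1 genes past the threshold, 270 (without core replicate 1) to 1908 (without core plus R. intestinalis replicate 2) with an unadjusted p below 0.05, where 701 were left without core plus R. intestinalis replicate 3, and 0 to 2 chemokines with one. These chemokines were Cxcl13 and Ccl25 without core plus R. intestinalis replicate 1, Cxcl10 without its replicate 3, Cxcl9 without core replicate 1, and Cxcl10 and Ccl25 without core replicate 3. The GC correction gave 1 chemokine (Ccl25). Same-numbered libraries did not deviate together (r = -0.12, -0.53 and -0.07), nor did those with the same number in the sample name (r = -0.01, -0.41 and -0.49), and 0 of the 3 core libraries correlated best with its own number of either kind. The replicate block gave 395 genes with an unadjusted p below 0.05, 1 chemokine among them (Cxcl9), and the block by the number in the sample name gave 1 (Cxcl13). Signs changed for Cxcl10 (0.029, library weights), Cxcl16 (0.011, block by the number in the sample name) and Ccl20 (-0.29 to 0.87 with 1 library left out). They also changed for Adam10 (0.0041, GC correction) and, with 1 library left out, for Ackr2 (-0.59 to 0.090) and Ccr9 (-0.13 to 0.38). Cxcr4, at -0.008, ran from -0.26 to 0.26 with 1 library left out and was 0.071 (GC correction), 0.027 (library weights), 0.00026 (pseudocount 5), 0.25 (block by the number in the sample name) and 0.019 (trimmed mean). Library weights took 4 other named genes past the threshold (Ackr4, Ndst1, Sdc1 and Rgs1). Of the 5 ligand-receptor pairs 0 passed under any alternative, and with 1 library left out r ran from -0.68 to 0.67 for Cxcl12 and Cxcr4 and from -0.27 to 0.77 for Cxcl16 and Cxcr6. The cause was not tested. Depth limits Cxcl1 most, at 0 to 2 estimated reads per library, then Ccl20, Cxcl10 and Cxcl9.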
